A study of Rattus norvegicus with 100 samples.

Results

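Pou1f1 encodes Pit-1, a transcription factor of the anterior pituitary, and it was followed here together with 6 genes of the cell types that depend on it. The genes were taken by name, with earlier results of these data known: Pou1f1 itself, the hormone genes Prl, Gh1 and Tshb, and the receptor genes Ghrhr, Trhr and Drd2. Every probe set annotated to one of these 7 genes alone was used, which gave 11 of the 15923 probe sets on the array. Pou1f1 and Ghrhr had 2 probe sets each, Trhr had 3, and Prl, Gh1, Tshb and Drd2 had 1 each.

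The study is a uterotrophic assay, a test in which immature female rats receive a compound and the growth of the uterus reports estrogenic activity. Ethinylestradiol (EE), the estrogen of many oral contraceptives, was given here. Pituitary glands of EE-treated rats were collected at 4, 8, 24, 48 and 72 h, and those of control rats at the same times, with 3 arrays in each of the 10 groups. All of these rats were juvenile females. Strain, dose, route and dosing schedule are not in the labels, nor whether an array stands for 1 animal or for a pool, so every p-value below measures only the spread between these samples. In RNA of a whole gland, fewer cells of a type and less RNA per cell cannot be told apart.

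Pit-1 is a POU-domain protein that binds the promoters of the growth hormone, prolactin and thyrotropin beta genes and of the growth hormone-releasing hormone receptor gene. Loss of its function in mouse and human leaves the pituitary short of somatotrophs, lactotrophs and thyrotrophs, the cells that make growth hormone, prolactin and thyrotropin. Hypothalamic factors steer these cells through the receptors Ghrhr, Trhr and Drd2, and estrogen is a known stimulus of rat lactotrophs and of prolactin.

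Values are linear intensities in the authors' arbitrary units. A change is the difference of log2(intensity + 30.4), EE minus control, given ± its standard error in a limma fit over all 30 pituitary arrays, with n = 3 arrays a group unless other numbers are given. The offset of 30.4 lowers the fold of dim probe sets. A probe set rose or fell where its adjusted p was under 0.05 after Benjamini-Hochberg adjustment over all probe sets tested in that comparison. Groups of 3 arrays without overlap are described only, and such a separation is no test. How often it occurs over all probe sets was not counted.

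The pituitary arrays held 9318 to 10135 values each, with median intensities of 103 to 110 and mean correlations of 0.969 to 0.988 with the other arrays of their own group. The log2 difference between the 3' and 5' control probe sets of Actb, a measure of RNA integrity, lay between 1.23 and 1.86. EE array 34, of the 8 h group, stood apart, with the lowest mean correlation with its own group (0.969) and with the other groups (0.962), the fewest values (9318) and the highest Actb difference among EE arrays (1.70). Calls of Pou1f1, Ghrhr and Trhr at 8 h are therefore given with and without this array. Calls of other named genes at 8 h are given only with it, and whether they hold without it is not shown. All 3 hormone genes had a value on each of the 30 arrays. Of the other markers of their cell types, Cga, the alpha subunit that thyrotropin shares with the gonadotropins, also had 30 values (4576 to 7330). The estrogen receptor gene Esr1 had 20 values (30.5 to 59.1), the ghrelin receptor gene Ghsr had 21 (31.1 to 69.5), and the deiodinase gene Dio2 had 0.

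Pou1f1 fell at 4 and 8 h of EE and did not pass the test from 24 h on. Probe set 1369762_at read 175, 276 and 202 on the EE arrays at 4 h, against 510.02, 469 and 489.9 on the control arrays. All 3 EE values lay below all 3 control values. The change was -1.09 ± 0.13, a 2.13-fold fall (adjusted p = 6.86e-06). Probe set 1369761_at read 199, 279 and 196 with EE, against 455, 436 and 364 in controls. These groups did not overlap either, and the change was -0.82 ± 0.13, a 1.77-fold fall (adjusted p = 2.95e-04). Ordered by p, the probe sets stood at places 6 and 21 of the 9429 tested at 4 h. Among the called probe sets of 1 named gene, they and Vsnl1 (-0.88) were the 3 deepest falls at that time, and the largest rise was that of Ass1 (1.75).

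At 8 h the values of 1369762_at were 449, 409.9 and 445 with EE and 660.3, 653 and 700.016 in controls. The gap was narrower than at 4 h but again without overlap, and Pou1f1 fell by 0.59 ± 0.13 (adjusted p = 0.0104). The same hour gave 383, 335 and 371 with EE and 512, 539 and 530.4 in controls for 1369761_at, a fall of 1.42-fold with a change of -0.50 ± 0.13 (adjusted p = 0.0278). The call of 1369761_at at 8 h was lost without EE array 34 (adjusted p = 0.0893) and without control array 26 (0.0679), 28 (0.0785) or 30 (0.0527). Without EE array 34 the change of 1369762_at at 8 h was -0.61 (adjusted p = 0.0409) and that of 1369761_at -0.52. Fitted on the 8 h groups alone, neither probe set passed (adjusted p = 0.0594 for 1369762_at and 0.123 for 1369761_at), whereas both still passed at 4 h (0.0105 and 0.0454).

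From 24 h the groups mixed. Probe set 1369762_at read 462, 549.8 and 669.9 with EE at 24 h, against 494, 535 and 577 in controls. The values at 48 h were 691, 524 and 632 with EE and 564, 582 and 626 in controls. At 72 h it read 828, 752 and 665.3 with EE, against 749.9, 581 and 665.7 in controls. In each of these pairs the EE and control ranges overlapped. The changes of this probe set were 0.0496, 0.0499 and 0.16 at 24, 48 and 72 h (adjusted p = 0.988, 0.957 and 0.659).

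The other Pou1f1 probe set did not pass the test from 24 h on either. It read 398, 449 and 513 with EE at 24 h, against 443, 529 and 428 in controls. By 48 h it read 621, 492 and 569 with EE, against 427, 436 and 538 in controls. At 72 h the values were 715, 676 and 559 with EE and 633, 491 and 566 in controls. The changes of 1369761_at were -0.040, 0.25 and 0.20 (adjusted p = 0.991, 0.584 and 0.55), and the 95% interval at 72 h ran from -0.064 to 0.46.

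The 10 group means of 1369762_at set the EE group at 4 h lowest, at 218 ± 52.4 (SD, n = 3, as for all group means here), followed by the EE group at 8 h at 435 ± 21.6 and the control group at 4 h at 489.6 ± 20.6. Neither of the first 2 groups overlapped the group above it. From the control group at 4 h upward every pair of neighbours in the order overlapped, up to the EE group at 72 h at 748 ± 81.4. The EE group at 4 h was lowest by 1369761_at as well, at 225 ± 46.8 without overlap with its neighbour, and the EE group at 72 h was highest there too, at 650.0 ± 80.8. Counted from the lowest, the control group at 8 h stood at place 9 by 1369762_at (671 ± 25.3) and at place 7 by 1369761_at (527 ± 14.2). The Pearson correlation between the Pou1f1 probe sets was 0.96 over the 30 arrays, and the pair reads the same gene.

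**Figure D1:**
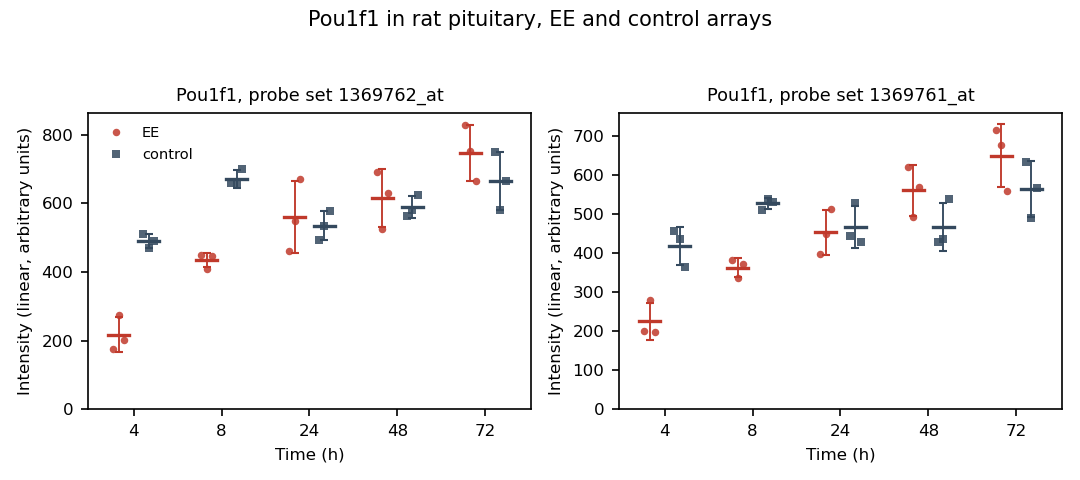
Intensity of both Pou1f1 probe sets (vertical axes, arbitrary linear units) by time (horizontal axis, h), EE left of control at each time. Points are arrays and bars are group means ± SD (n = 3). At 4 and 8 h all EE points lie below all control points, with means of 218 and 435 for EE and 489.6 and 671 for control by 1369762_at, and from 24 h on the points mix.

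The change of Pou1f1 differed between the 5 times. An F test of the difference between times gave adjusted p = 5.29e-04 for 1369762_at and 0.0025 for 1369761_at, places 5 and 15 of 8768 probe sets. Averaged with equal weight over the times, Pou1f1 fell by 0.28 ± 0.057 (1369762_at, adjusted p = 0.00157) and by 0.18 ± 0.057 (1369761_at, adjusted p = 0.0422). The second of these averages lost its call when each array's level was centred (adjusted p = 0.0527) and when any of 18 of the 30 arrays was left out, with adjusted p of 0.0502 to 0.0796. These were EE arrays 20, 23, 33, 34, 43, 44, 69, 71 and 83 and control arrays 16, 17, 26, 28, 30, 40, 66, 73 and 76.

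RNA integrity and other cells' markers were set beside the early fall. The log2 difference of the Actb probe sets was 1.26 to 1.51 on EE arrays and 1.38 to 1.54 on control arrays at 4 h, and 1.26 to 1.70 on EE arrays and 1.51 to 1.57 on control arrays at 8 h. With this measure as a covariate the changes of 1369762_at were -1.07 at 4 h (adjusted p = 1.22e-05) and -0.57 at 8 h (0.00913). The summed level of the corticotroph and melanotroph markers (6 of 10 on the array, 4 of them summed) was lower with EE, at 351 to 444 against 459 to 530 in controls at 4 h and at 421 to 495 against 507 to 536 in controls at 8 h. The sums were not tested. Of 4 genes of this list tested at 4 h, only Neurod1 fell, and 0 of 5 passed at 8 h. Over all tested probe sets, 1.37% and 3.21% passed at these times. Neurod1 is also among the cell fate factors below. The sum of the folliculostellate and stem cell markers (10 of 12 on the array, 9 summed, Cyp2f4 blank throughout) was 824 to 920.2 with EE and 926 to 1119 in controls at 8 h, without overlap, and overlapped at 4 h (907 to 1129 with EE and 965 to 1059 in controls). Of the 9 genes of that list tested, 0 passed at 4 or 8 h. The gonadotroph, neural lobe, and endothelial and blood sums overlapped between EE and control at both times. Of 6 gonadotroph genes tested, 1 rose at 4 h and 0 passed at 8 h. Of 4 neural lobe genes and 9 endothelial and blood genes tested, 0 passed at 4 or 8 h. The endothelial and blood list holds the blood marker Hbb, with a mean intensity of 4474 over the pituitary arrays. The part of these markers in the fall of Pou1f1 was not tested.

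The 3 hormone genes passed no test of EE at any time. They encode the products of the Pit-1-dependent cells: Prl prolactin of lactotrophs, Gh1 growth hormone of somatotrophs, and Tshb the beta subunit of thyrotropin.

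Prl overlapped between the groups at 4, 8, 24 and 48 h. At 4 h it read 3471, 5914 and 4499 with EE, against 4489, 4058 and 4301 in controls. At 8 h it read 5664, 4731 and 6387 with EE, against 5816, 4575 and 6412 in controls. The EE arrays at 4 h spanned both the lowest and the highest of those 6 values. At 24 h Prl read 5313, 4772 and 5393 with EE, against 4702, 4271 and 5555 in controls, and at 48 h 5503, 5745 and 5446 with EE, against 5478, 4521 and 6198 in controls. The changes at these 4 times lay between 0.0015 and 0.097.

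At 72 h Prl read 6708, 6983 and 6044 with EE, against 5962, 5349 and 5765 in controls. All 3 EE arrays were above all 3 controls, with means of 6578 ± 483 and 5692 ± 313. The change of 0.21 ± 0.15 did not pass (adjusted p = 0.607), and its 95% interval was -0.095 to 0.51. Averaged over the times, the change of Prl was 0.088 ± 0.066 (adjusted p = 0.479, 95% interval -0.047 to 0.22).

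Gh1 at 4 h read 5871, 6855 and 5529 with EE, against 5312, 5184 and 6211 in controls. At 8 h it read 5904, 6373 and 7206 with EE, against 6461, 6420.3 and 8825 in controls, the last being the highest intensity of the whole series. Both pairs overlapped. At 24 h it read 6102, 5044 and 6398 with EE, against 5354, 6413 and 5922 in controls. The next time, 48 h, gave 6022, 5908 and 5736 with EE, against 6745, 6092 and 6844.5 in controls. All EE arrays lay below all controls at 48 h, yet the change of -0.15 ± 0.11 did not pass (adjusted p = 0.798). At 72 h Gh1 read 6643, 6335 and 6513 with EE, against 6332, 6796 and 6149 in controls, which overlapped. The average change over the times was -0.034 ± 0.050 (adjusted p = 0.756, 95% interval -0.14 to 0.069).

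Tshb overlapped between EE and control at every time. At 4 h it read 2966, 3233 and 2635 with EE, against 2925, 2912 and 3582 in controls. At 8 h it read 3084, 3344 and 3976 with EE, against 3076, 2705 and 3162 in controls. The change at 8 h, 0.21 ± 0.11 (adjusted p = 0.281), was the largest of Tshb at any time. At 24 h Tshb read 3299, 2806 and 3238 with EE, against 3029, 3420 and 3451 in controls. The 48 h arrays read 3460.1, 2976 and 2888 with EE, against 3081, 3349 and 2896 in controls. At 72 h it read 2917, 3222 and 3198 with EE, against 2951, 3479 and 2863 in controls. Averaged over the times the change was 0.0092 ± 0.048 (adjusted p = 0.948, 95% interval -0.090 to 0.11).

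**Figure D2:**
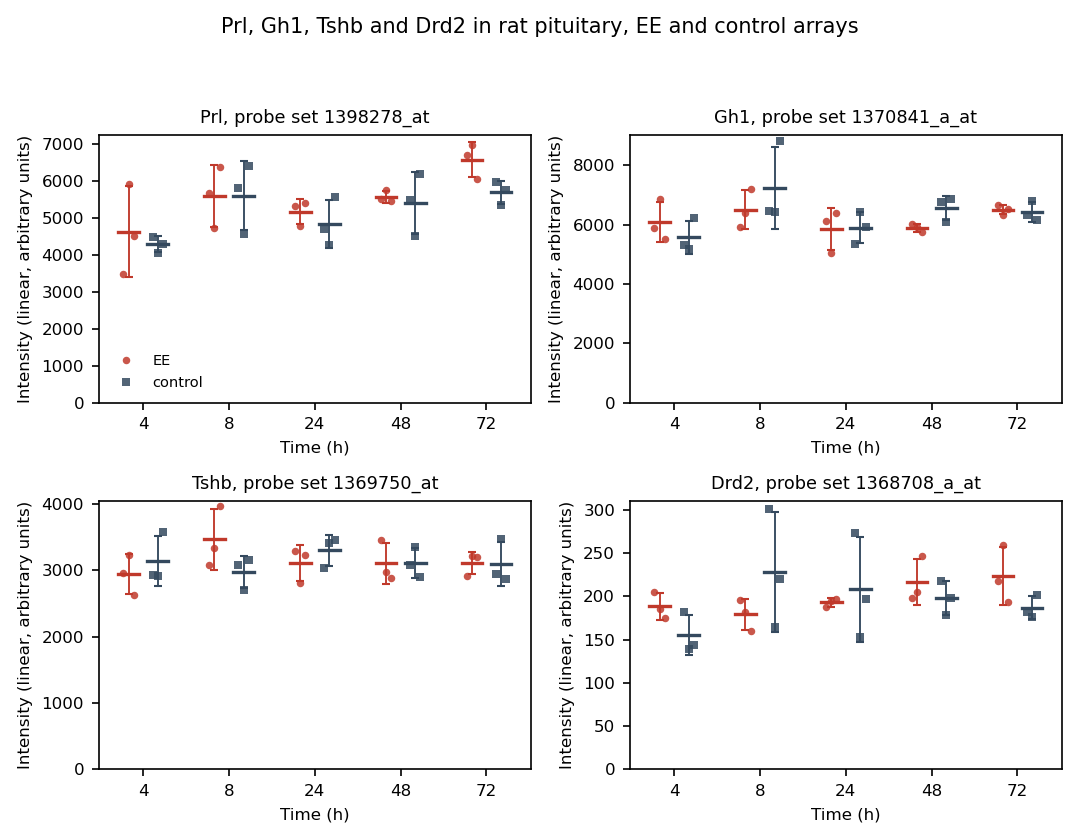
Intensity (vertical axes, arbitrary linear units) of Prl, Gh1, Tshb and Drd2 by time (horizontal axis, h), EE left of control. Points are arrays and bars are group means ± SD (n = 3); the groups stand apart for Prl at 72 h, where the means were 6578 with EE and 5692 in controls, and for Gh1 at 48 h, and no pair passed the test.

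The hormone probe sets were among the brightest of the array. Gh1 was the brightest of all probe sets on 24 of the 30 arrays and was at 90.7% to 100% of each array's highest value. Prl was the brightest on 2 arrays, stood among the 10 brightest on 28, and read 59.1% to 100% of the highest value. Tshb ranked 17 to 44, at 35.8% to 58.3% of that value. Near the top of a scanner's range a probe set can saturate, which compresses differences, and the deposited values carry no saturation mark, so whether it happened was not tested. The SD of log2 values within a group was 0.194 for Prl, 0.141 for Gh1 and 0.136 for Tshb, against a median of 0.127 over 7900 probe sets.

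Promoter windows were read to show what sequence lies at the start of the hormone genes that Pit-1 is known to bind. RefSeq's table for build GRCr8 holds 250 bases before and 50 after the start of a gene, and 4 of the 7 genes were matched (Prl, Tshb, Ghrhr and Drd2). Both strands were searched for TATNCAT, letters like those of a Pit-1 site, for the estrogen response half-site GGTCA, and for the full element (GGTCA, 3 free bases, TGACC), which includes the half-site. Of 33469 promoters in the table, 9.88% held the first, 40.5% the second and 0.0269% the third. The Prl window is chr17:38298168-38298467 on the minus strand and the Tshb window chr2:192918005-192918304 on the minus strand. Capitals mark a match.
Prl: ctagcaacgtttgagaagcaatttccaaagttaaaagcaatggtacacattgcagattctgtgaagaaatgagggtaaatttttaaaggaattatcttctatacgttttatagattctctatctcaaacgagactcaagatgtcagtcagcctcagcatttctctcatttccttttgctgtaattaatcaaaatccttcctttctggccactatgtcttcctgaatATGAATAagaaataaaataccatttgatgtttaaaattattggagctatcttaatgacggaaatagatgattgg
Tshb: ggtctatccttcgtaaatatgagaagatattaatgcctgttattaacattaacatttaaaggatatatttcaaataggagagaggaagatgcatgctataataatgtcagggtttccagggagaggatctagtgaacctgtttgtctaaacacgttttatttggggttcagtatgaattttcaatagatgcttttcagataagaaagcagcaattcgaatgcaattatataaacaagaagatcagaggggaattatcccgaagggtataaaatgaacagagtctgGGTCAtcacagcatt
In the Prl window TATNCAT was found once, on the opposite strand, its first base at -24 from the start, and no half-site was found. The Tshb window held a half-site at 36 after the start and no TATNCAT. A match is a description of letters only.

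Ghrhr, through which growth hormone-releasing hormone drives somatotrophs, fell at 8 h. Probe set 1369494_a_at read 159.95, 196 and 117 with EE, against 298, 282 and 269.96 in controls. The highest EE value was below the lowest control, and the change was -0.76 ± 0.14 (adjusted p = 0.00385, 95% interval -1.04 to -0.47). Probe set 1370730_a_at read 153, 146 and 97.5 with EE, against 226, 184 and 231 in controls, again without overlap. It fell by 0.60 ± 0.16 (adjusted p = 0.0401). The lowest 8 h value of each probe set, 117 and 97.5, was on EE array 34, and without that array the changes were -0.59 (adjusted p = 0.0404) and -0.43 (0.251). The second call was lost with an offset of 1 (adjusted p = 0.0528) and without control array 26 (0.115) or 28 (0.137), besides EE array 34. On the 8 h groups alone neither probe set passed (adjusted p = 0.113 and 0.193). With the Actb measure as a covariate the changes at 8 h were -0.81 and -0.66 (adjusted p = 7.14e-04 and 0.00846).

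Ghrhr did not pass at single times other than 8 h. At 4 h 1369494_a_at read 281, 198 and 207 with EE, against 239, 286 and 228 in controls. At 24 h it read 174, 156 and 163 with EE, against 260.3, 192 and 160.4 in controls. Both pairs overlapped. At 48 h it read 143, 129 and 136 with EE, against 192, 212 and 171 in controls, and at 72 h 125, 123 and 152 with EE, against 169, 181 and 159 in controls. EE arrays were below all controls at 48 and 72 h, with changes of -0.41 ± 0.14 and -0.29 ± 0.14 (adjusted p = 0.248 and 0.352).

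The second Ghrhr probe set gave overlapping groups at 4, 24 and 48 h. At 4 h 1370730_a_at read 218, 140.1 and 169 with EE, against 159, 208 and 195 in controls. At 24 h it read 127, 127 and 146 with EE, against 175, 168 and 143 in controls. The 48 h values were 164, 106 and 116 with EE, against 121, 209 and 131 in controls. Separation returned at 72 h, where it read 96.5, 101 and 127 with EE, against 161, 155 and 153 in controls (change -0.44 ± 0.16, adjusted p = 0.183, and 0.0357 in a fit on the 72 h groups alone). Averaged over the times both probe sets fell, by 0.37 ± 0.062 (1369494_a_at, adjusted p = 2.62e-04) and by 0.31 ± 0.072 (1370730_a_at, adjusted p = 0.00627). Their F tests of a difference between times gave adjusted p of 0.368 and 0.636.

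RefSeq's table holds 2 starts of Ghrhr, and the windows of both are shown. The first is chr4:85830236-85830535 and the second chr4:85849655-85849954, both on the plus strand of GRCr8. Capitals mark GGTCA on the opposite strand.
Ghrhr, first start: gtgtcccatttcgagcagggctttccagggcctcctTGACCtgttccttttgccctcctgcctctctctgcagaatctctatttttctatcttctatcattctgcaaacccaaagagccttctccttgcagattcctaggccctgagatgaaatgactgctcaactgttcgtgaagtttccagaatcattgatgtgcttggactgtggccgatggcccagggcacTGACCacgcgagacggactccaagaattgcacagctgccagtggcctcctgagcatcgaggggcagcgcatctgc
Ghrhr, second start: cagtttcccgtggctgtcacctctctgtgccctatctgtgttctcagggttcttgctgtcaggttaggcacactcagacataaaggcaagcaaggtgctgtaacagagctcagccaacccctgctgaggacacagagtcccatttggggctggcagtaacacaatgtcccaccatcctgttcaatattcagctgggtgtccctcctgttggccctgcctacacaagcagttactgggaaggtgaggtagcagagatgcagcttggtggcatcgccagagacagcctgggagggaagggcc
The first window held the half-site at -214 and -25, and the second held none. Neither held TATNCAT, and 1 half-site, at -66, was found in the Drd2 window. The half-site was found in 40.5% of all promoters, and any part of it in the changes was not tested.

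Trhr, the receptor for thyrotropin-releasing hormone on thyrotrophs and lactotrophs, rose at 8 and 72 h. Probe set 1369751_at at 8 h read 472, 428 and 505 with EE, against 297, 213 and 314 in controls. At 72 h it read 474, 516 and 482 with EE, against 252, 205 and 259 in controls. The EE arrays stood above every control array at both times. The changes were 0.72 ± 0.15 at 8 h (adjusted p = 0.00766, 95% interval 0.42 to 1.02) and 0.96 ± 0.15 at 72 h (adjusted p = 2.57e-04, 95% interval 0.66 to 1.26). The group means at 72 h were 491 ± 22.5 with EE and 239 ± 29.6 in controls. Without EE array 34 the change at 8 h was 0.67 (adjusted p = 0.0491). Among the called probe sets of 1 named gene at 72 h, its rise was the third largest, after Fkbp11 (1.12) and Olfm3 (1.09).

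Separation without a call was also seen for Trhr at 24 and 48 h. At 24 h 1369751_at read 261, 329.9 and 263 with EE, against 225, 209 and 208 in controls. At 48 h it read 300.02, 356 and 327 with EE, against 248, 241 and 269 in controls. Each EE value exceeded every control value, while the changes of 0.36 and 0.34 did not pass (adjusted p = 0.707 and 0.462). At 4 h the groups overlapped, with 344, 548 and 395 for EE against 372, 238 and 346 in controls (change 0.39 ± 0.15, adjusted p = 0.271). Averaged over the times 1369751_at rose by 0.55 ± 0.065 (adjusted p = 2.36e-06), and the F test of a difference between times gave adjusted p = 0.289.

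Probe set 1370736_s_at, a dim one, read 83.3, 67.8 and 64.3 with EE at 8 h, against 41.7, 26.9 and 51.1 in controls. At 72 h it read 69.9, 84.8 and 87.4 with EE, against 37.6, 36.3 and 34.6 in controls. It rose at both times without overlap, by 0.55 ± 0.14 (adjusted p = 0.0317) and 0.73 ± 0.14 (adjusted p = 0.00376). At 4 h it read 37.8, 86.4 and 55.9 with EE, against 43.6, 35.1 and 41.5 in controls. At 24 h it read 50.2, 49.96 and 33.9 with EE, against 30.6, 32.6 and 39.2 in controls, and at 48 h 50.3, 61.3 and 55.6 with EE, against 34.5, 37.4 and 51.9 in controls. These 3 pairs overlapped and did not pass. The call at 8 h was lost without EE array 32 (adjusted p = 0.113) or 34 (0.0737) or control array 28 (0.0835) or 30 (0.1), and on the 8 h groups alone it was 0.208, with 0.113 for 1369751_at.

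Trhr probe set 1387682_at had values on 22 of 30 arrays and was the dimmest of all 11. At 4 h it read 22.2, 40.9 and 27.2 with EE, against 25.7, 17.03 and 18.8 in controls (change 0.24, adjusted p = 0.577). At 72 h it read 32.8, 27.7 and 17.8 with EE, against 9.60 and 19.1 on the 2 control arrays that had a value (change 0.34, adjusted p = 0.287). Both pairs overlapped. At 8, 24 and 48 h only 1 control array had a value (21.5, 16.3 and 18.7), so no test was made there. The EE arrays read 36.8, 22.8 and 32.96 at 8 h, 15.6 and 22.6 with 1 blank at 24 h, and 22.1, 25.4 and 21.9 at 48 h.

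**Figure D3:**
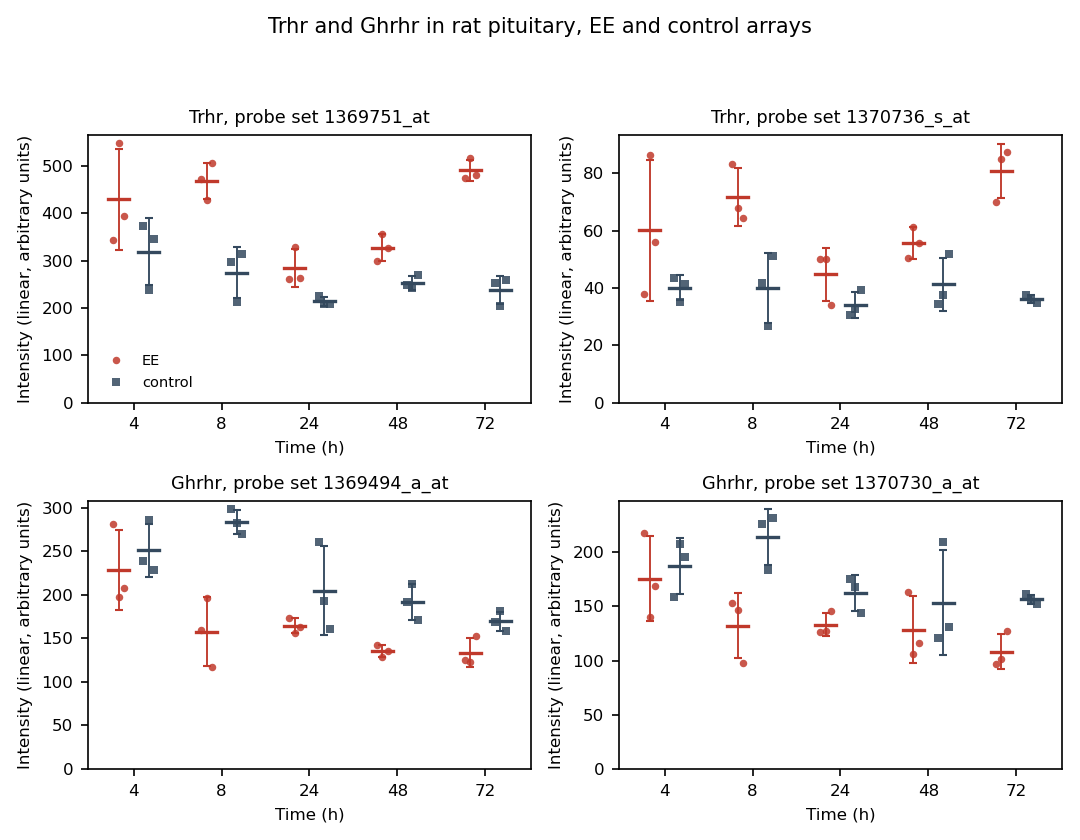
Intensity (vertical axes, arbitrary linear units) of Trhr probe sets 1369751_at and 1370736_s_at and of both Ghrhr probe sets by time (horizontal axis, h), EE left of control. Points are arrays and bars are group means ± SD (n = 3). Trhr 1369751_at is above control without overlap from 8 to 72 h (491 with EE and 239 in controls at 72 h), and Ghrhr is below control without overlap at 8 and 72 h. Such a separation is no test. At single times, Trhr passed the test only at 8 and 72 h and Ghrhr only at 8 h.

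Drd2 encodes the receptor through which hypothalamic dopamine restrains lactotrophs, and it overlapped between the groups at all 5 times. At 4 h it read 205, 185 and 174 with EE, against 182, 139.6 and 144 in controls. At 8 h it read 196, 182 and 159.99 with EE, against 302, 164 and 220.07 in controls. Control arrays at 8 h were the more scattered group. At 24 h Drd2 read 187, 194 and 197 with EE, against 274, 153 and 198 in controls. At 48 h it read 199, 205 and 247 with EE, against 218, 178 and 198 in controls, and at 72 h 218, 259 and 194 with EE, against 182, 176 and 202 in controls. The change at 8 h was -0.27 ± 0.15 (adjusted p = 0.334) and that at 4 h 0.24 ± 0.15 (adjusted p = 0.694). Averaged over the times it was 0.048 ± 0.069 (adjusted p = 0.752, 95% interval -0.094 to 0.19).

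Counted over the members, 2 of 11 probe sets, both of Pou1f1, fell at 4 h and none rose, where 1.37% of 9429 probe sets passed. At 8 h, 4 of 10 fell (Pou1f1 and Ghrhr) and 2 rose (Trhr), where 3.21% of 9265 passed. All of these 8 h calls were lost in the fit on the 8 h groups alone. At 24 and 48 h, 0 of 10 members passed in limma, where 0.0947% of 9505 and 0.315% of 9537 passed, and 559 and 863 probe sets had an unadjusted p under 0.05. At 72 h, 2 of 11 rose (Trhr), where 2.74% of 9172 passed. In the average over the times, 4 of 10 fell and 2 rose, again Pou1f1, Ghrhr and Trhr, where 8.2% of 8768 passed. The change differed between times for 2 of 10 members, both of Pou1f1, where 1.03% of 8768 passed. Members were chosen with earlier results of these data known, so their counts are no independent comparison with all probe sets.

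The median change of the tested members was 0.079 at 4 h, -0.21 at 8 h, -0.028 at 24 h, 0.052 at 48 h and 0.20 at 72 h. Over all tested probe sets it was -0.0096, 0.0036, 0.00042, 0.00084 and -0.0078 at the same times. Probe sets of 1 gene share their target and are not independent.

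**Figure D4:**
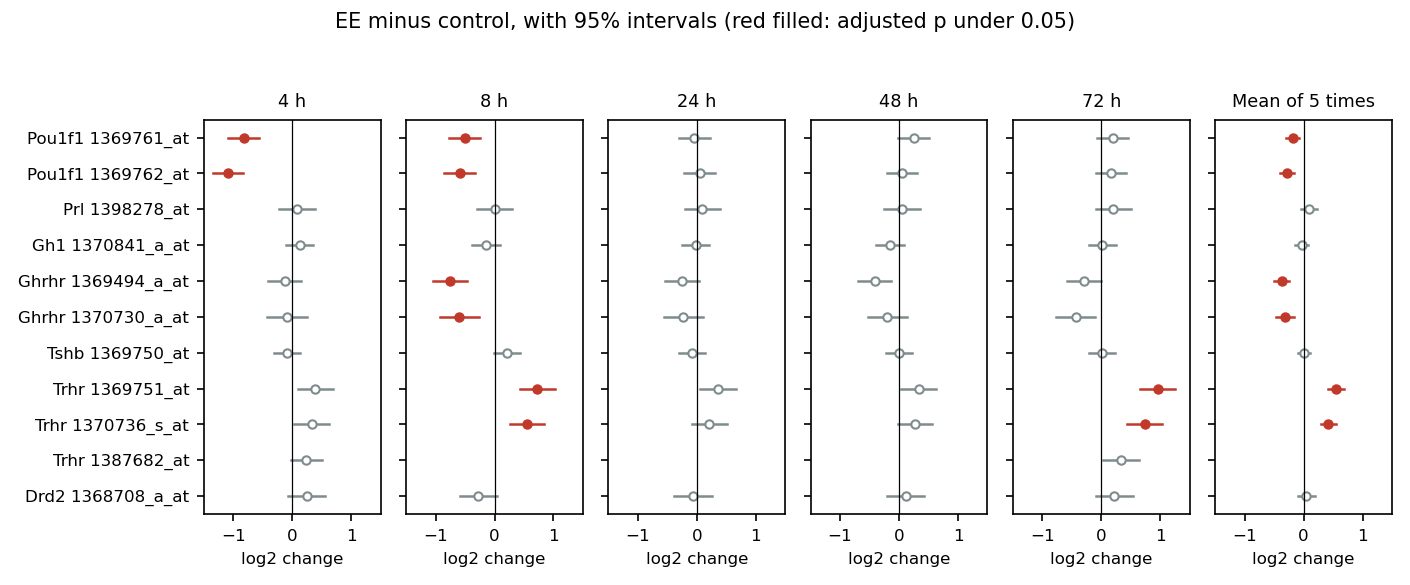
Change of each member, EE minus control on the log2(intensity + offset) scale, at 4, 8, 24, 48 and 72 h and as the mean over the 5 times; lines are 95% intervals and filled red points have an adjusted p under 0.05. Pou1f1 lies left of 0 at 4 h (-1.09 and -0.82) and at 8 h, Ghrhr left of 0 at 8 h, and Trhr right of 0 at 8 and 72 h (0.96 for 1369751_at).

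Among the control arrays alone, 1 of 10 members differed between the 5 times, where 1.59% of 9040 probe sets passed. This was Ghrhr 1369494_a_at (adjusted p = 0.0392), whose control mean was 251 ± 30.5 at 4 h, 283 ± 14.2 at 8 h and 169 ± 11.1 at 72 h. Its call was lost with an offset of 1 (adjusted p = 0.0688), on the control arrays alone (0.0653), and without any of control arrays 16, 17, 26, 28, 30, 61, 66, 73, 75 and 76 (0.0507 to 0.106). None of the 11 members passed in the direct comparison of control arrays at 72 h with those at 4 h, where 2.08% of 9287 probe sets passed in limma and 1554 had an unadjusted p under 0.05. The Pou1f1 changes in that comparison were 0.41 ± 0.13 (1369762_at, adjusted p = 0.0812) and 0.40 ± 0.13 (1369761_at, 0.0896), and that of Prl was 0.41 ± 0.15 (0.145).

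The genes around these members were described through lists, with the members themselves left out and the brightest probe set standing for a gene. Over all tested probe sets, 1.37%, 3.21%, 0.0947%, 0.315% and 2.74% passed at 4, 8, 24, 48 and 72 h, and 8.2% in the average. A single call is a result about that gene and not about its list. The list of pituitary cell fate factors held 26 genes, of which 14 were on the array. At 4 h, 1 of 8 tested fell, Neurod1, a factor of the corticotroph lineage (-0.57 ± 0.12, adjusted p = 0.00764). At 8 h, 1 of 9 fell, Gata2, a factor of thyrotrophs and gonadotrophs that acts with Pit-1 at the Tshb promoter (-0.56 ± 0.11, adjusted p = 0.00721). Gata2 rose at 24 h, as 1 of 10 tested (0.58 ± 0.11, adjusted p = 0.026). At 48 h 0 of 8 passed, and at 72 h 1 of 8 fell, again Neurod1 (-0.53 ± 0.12, adjusted p = 0.0109). The list's median change was -0.036 at 4 h, -0.0088 at 8 h and -0.049 at 24 h.

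Of the lactotroph signalling list (21 of 24 genes on the array), 1 of 11 tested fell at 8 h, Gnao1 (-0.41 ± 0.11, adjusted p = 0.0479), where 3.21% of all tested probe sets passed. At 72 h, where 2.74% passed, 1 of 14 rose, Gnai1 (0.70 ± 0.15, adjusted p = 0.00701). Both encode alpha subunits of the inhibitory G proteins that dopamine receptors use. None passed at 4, 24 or 48 h. In the average, where 8.2% of all tested probe sets passed, 2 of 11 rose, Gnai1 and the potassium channel gene Kcnj3 (0.33 and 0.11), and 0 fell. The median change was -0.031 at 8 h, 0.0055 at 72 h and -0.084 in the average. Of the somatotroph signalling list (20 of 21 on the array) none passed at any time, with 14, 12, 13, 15 and 14 tested. Crem, a cAMP-responsive factor, fell as 1 of 9 in the average (-0.36 ± 0.060, adjusted p = 2.62e-04), where 8.2% passed. The list's median was -0.088 at 8 h.

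The thyrotroph signalling list (16 of 20 on the array, 12 tested) holds Gata2 too. Ncoa1, a coactivator of nuclear receptors, fell at 4 h (-0.31 ± 0.068, adjusted p = 0.015) and at 8 h (-0.43 ± 0.068, adjusted p = 9.07e-04). This made 1 of 12 and, with Gata2, 2 of 12, where 1.37% and 3.21% of all tested probe sets passed. At 24 h 1 of 12 rose, Gata2, where 0.0947% passed, and at 48 and 72 h 0 passed. The median was -0.0050 at 4 h and -0.087 at 8 h. Of the secretory granule list (14 of 17 on the array, 13 tested), 1 fell and 1 rose at 72 h, where 2.74% passed. These were Chga, a granule protein (-0.74 ± 0.18, adjusted p = 0.0208), and Rab3d, a GTPase of secretory vesicles (0.77 ± 0.18, adjusted p = 0.0163, 3 EE and 2 control values). In the average, where 8.2% passed, 2 of 13 fell, Chga (-0.45) and the amidating enzyme gene Pam (-0.18), and 0 rose. Its median was -0.10 at 72 h and -0.080 in the average. Of the cell fate factors 1 of 7 fell in the average, Neurod1 (-0.26), and of the thyrotroph list 1 of 12, Ncoa1 (-0.24), where 8.2% of all tested probe sets passed.

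Some markers of other pituitary cells also moved, at times when members passed and at times when none did. The sums below are descriptions and were not tested. Gnrhr, the gonadotroph receptor for gonadotropin-releasing hormone, fell at 24 h (-0.86 ± 0.17, adjusted p = 0.0388), at 48 h (-1.22 ± 0.17, adjusted p = 9.03e-04) and at 72 h (-1.57 ± 0.17, adjusted p = 5.12e-06). Of 6 gonadotroph genes tested, only Gnrhr passed at these times. Over all tested probe sets, 0.0947%, 0.315% and 2.74% passed at 24, 48 and 72 h. The gonadotroph sum (6 of 8 listed) was 3431 to 5332 with EE and 5553 to 6686 in controls at 24 h, and 3109 to 3844 with EE and 5373 to 6830.3 in controls at 48 h. At 72 h, the time of the largest Trhr change, it was 2426 to 2799 with EE and 4320 to 4851 in controls. The corticotroph and melanotroph sum at 72 h was 354 to 366 with EE and 457 to 478 in controls. Of the 4 genes of that list tested, only Neurod1 passed at 72 h. The folliculostellate and stem cell sum was 806 to 885 with EE and 1065 to 1363 in controls at that time, and 933 to 1116 with EE and 1185 to 1252 in controls at 48 h. Of the 9 genes of that list tested, 0 passed at 48 h and 1 fell at 72 h. The endothelial and blood sum (8 of 14 listed, Cd68 blank throughout) was 6204 to 7128 with EE and 7909 to 8659 in controls at 72 h and overlapped at the other times. None of the 9 genes of that list tested at 72 h passed. Its blood marker Hbb alone had a mean intensity of 4474 over the pituitary arrays. In the average over the times, 3 of 6 gonadotroph genes fell and 1 rose, 1 of 4 corticotroph and melanotroph genes fell, 1 of 9 folliculostellate genes fell, and 7 of 15 cell division genes rose, where 8.2% of all tested probe sets passed in either direction. None of 4 neural lobe genes and none of 9 endothelial and blood genes passed, and Avp, Oxt, Rax and Sox10 were blank on all 30 arrays. The medians in that order were -0.18, -0.12, -0.10, 0.16, -0.035 and -0.051, against -0.0022 over all tested probe sets. The part of these cells in the members' changes was not tested.

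The probe sets most like Pou1f1 1369762_at over the 30 arrays, among 4049 with complete values and a mean above the pituitary median, belonged to Plcxd3 (Pearson r = 0.83), Syt17 (0.81), Fam171b (0.77), Stmn1 (0.75) and Mrps21 (0.75). For Ghrhr they were Adamtsl4 (0.92) and Nnat (0.90), for Trhr both probe sets of Ssr3 (0.82 and 0.81), and for Drd2 Olfm1 (0.77) and Bcat1 (0.76). Prl was most like Mrps33 (0.77), Cox7c (0.76), Fmc1 (0.75), Atp6v1c1 (0.73) and Emb (0.73), and Tshb most like Canx (0.73) and Hsp90b1 (0.63). Gh1 was most like Cga (0.93) and COX2 (0.81), which stood with it among the brightest probe sets, followed by Rpl27a (0.68), Ndel1 (0.67) and Cab39 (0.66). All of these correlations include the differences between the 10 groups and are descriptions only.

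All of these probe sets except Trhr 1387682_at had a value on every pituitary array, whereas both Pou1f1 probe sets, Prl, Gh1, Drd2 and 2 Trhr probe sets were blank on all 70 uterus arrays of the same series. Ghrhr read 117 to 298 and 96.5 to 231 in pituitary by its probe sets 1369494_a_at and 1370730_a_at, against 21.4 to 49.9 (48 values) and 23.004 to 58.2 (51 values) in uterus. Tshb read 2635 to 3976 in pituitary, against 6.98 to 25.3 (51 values) in uterus. Trhr 1369751_at read 205 to 548 in pituitary, against 13.9 to 29.1 (31 values) in uterus.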

How the data were processed

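RNA was measured on RAE230A GeneChip arrays, a 3' expression array, from total RNA of rat pituitary (30 arrays) and uterus (70 arrays). Per the labels' protocols, RNA was isolated with RNeasy columns and 5 µg was processed. The authors deposited 1 linear intensity per probe set and array; how they were scaled and summarised is not given in the sources used here, nor is the meaning of blank cells (38.6% in pituitary). Array annotation assigned 12783 of 15923 probe sets to 1 gene, 312 to several and 2771 to none, and 57 were control probe sets; 0 symbols needed an update.

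From these values, log2(intensity + 30.4) was computed, the offset being percentile 10 of all values. Blanks were left out, and a probe set was tested with at least 2 values in each group. One limma model (limma 3.58.1 in R 4.3.3) with a mean for each of the 10 pituitary groups gave each change, the average over times, F tests between times, and the comparison of control groups, with moderated variance and Benjamini-Hochberg adjustment over all non-control probe sets tested. Scripts were tested on simulated data. With 3 arrays a group, precision is set by their number, and no counts of molecules exist.

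Members and the 11 gene lists (187 entries, 146 on the array) were chosen with earlier results of these data known. Named genes were all members, up to 4 genes a list with the smallest adjusted p, the probe sets most correlated with each member and the 3 largest rises and falls. Alternatives were 9 settings (offset, normalization, groups in the fit, filters, a probe set per gene, an Actb covariate) and leaving out each array. Replicate numbers come from the sample titles. Promoter letters came from RefSeq GRCr8.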

Additional observations from a re-analysis of the deposited data

Results flagged for a closer look

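The EE effect on Pou1f1 differed between the times by limma's F test, with adjusted p = 5.29e-04 for probe set 1369762_at and 0.0025 for 1369761_at. The changes of 1369762_at, EE minus control on the log2(intensity + 30.4) scale, were -1.09 at 4 h, -0.59 at 8 h, 0.0496 at 24 h, 0.0499 at 48 h and 0.16 at 72 h. Those of 1369761_at were -0.82, -0.50, -0.040, 0.25 and 0.20 at the same times. All 3 EE arrays were below all 3 control arrays at 4 and at 8 h for both probe sets.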

How the results depend on the processing

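No paired analysis was possible because EE and control groups of the pituitary share no replicate numbers. Under the settings other than leaving out an array, 746 of 772 values kept their direction and side of the threshold, 10 calls were lost, 4 were gained, 11 changed sign and 1 became 0. The values counted as kept include Gh1 at 4 h, whose lowest value over these settings was 1.8e-15, practically 0. The changes of Pou1f1 at 4 h and of Trhr at 72 h kept their calls under each of these settings that gave them a value. Counts of called probe sets moved by over 1.5 times in a fit of only the groups compared (33 at 4 h, 12 at 8 h, 3 at 24 h and 33 between control times), with the Actb covariate (681 at 8 h), among probe sets above the pituitary median (15 at 48 h), with quantile normalization (154 at 72 h) and with an offset of 1 (87 between control times and 127 for control at 72 h against 4 h). The main counts were 129, 297, 9, 30 and 251 at 4, 8, 24, 48 and 72 h, 144 between control times and 193 for control at 72 h against 4 h. Quantile normalization changed the share of rises among called probe sets to 39% at 8 h (52.9% as deposited), 53.2% at 72 h (64.5%) and 49.1% for control at 72 h against 4 h (60.1%).

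Calls gained were those of Ghrhr 1370730_a_at at 72 h (adjusted p = 0.0357) and, for control at 72 h against 4 h, Prl (0.0454) and Ghrhr 1369494_a_at (0.0447), all in the fit of only the groups compared, and the last also among probe sets above the median (0.0466). None of the values that changed sign had passed the test. With quantile normalization these were Prl at 4 h (-0.068), Gh1 at 8 h (0.029), 48 h (0.028) and 72 h (-0.030) and on average (0.0055), Tshb at 72 h (-0.10) and on average (-0.043), and Gh1 for control at 72 h against 4 h (-0.029), while Gh1 at 24 h became 0. Gh1, as the brightest probe set, is set to nearly the same value on each array by that method. Centring gave -0.015 for Prl at 8 h and 0.015 for Tshb at 48 h, and the Actb covariate gave 0.0043 for Tshb at 48 h.

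Leaving out each array in turn kept 1048 of 1124 values, lost 39 and changed the sign of 37. The counts of called probe sets ranged over 73 (without control array 16) to 135 (EE 20) at 4 h, 75 (EE 34) to 716 (EE 33) at 8 h, 0 (EE 43 or 46) to 8 (control 38) at 24 h, 12 (control 64) to 24 (control 61) at 48 h, 117 (EE 81) to 157 (control 75) at 72 h and 573 to 859 on average. They were 49 (control 16) to 133 (EE 33) for a difference between times, 29 (control 76) to 129 (control 38) between control times and 13 (control 73) to 92 (control 75) for control at 72 h against 4 h. Sign changes came with ranges of -0.11 to 0.27 (Prl), -0.23 to 0.039 (Ghrhr 1370730_a_at) and -0.16 to 0.0080 (Tshb) at 4 h, and -0.14 to 0.12 (Prl) and -0.22 to 0.0070 (Gh1) at 8 h. At 24 h they were -0.13 to 0.048 (Pou1f1 1369761_at), -0.080 to 0.17 (1369762_at), -0.084 to 0.087 (Gh1) and -0.24 to 0.13 (Drd2). At 48 h they were -0.034 to 0.16 (Pou1f1 1369762_at), -0.067 to 0.16 (Prl), -0.35 to 0.0088 (Ghrhr 1370730_a_at) and -0.081 to 0.052 (Tshb). At 72 h they were -0.014 to 0.058 (Gh1) and -0.043 to 0.096 (Tshb), and for Tshb -0.011 to 0.029 on average and -0.10 to 0.080 for control at 72 h against 4 h. The dim Trhr probe sets and blank cells limit what can be compared there.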
